A study of Mus musculus with 12 samples.

Results

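The integrin and laminin genes were followed in cochlear glial spheres and in the cells differentiated from them. Members were taken by gene symbol, as every gene named Itga, Itgb, Lama, Lamb or Lamc followed by its subunit or chain number or letter, and 37 of the 55487 genes in the deposited table met this rule. They comprised 18 integrin alpha subunits, 8 integrin beta subunits, 5 laminin alpha chains, 3 laminin beta chains and 3 laminin gamma chains. RNA-seq was performed on 12 libraries in 4 groups of 3, labelled as biological replicates, to compare small molecule induced neurons with spheres and with 2 control media. All of the cells came from the cochleae of postnatal day 4 mice on a mixed C57Bl6 and FVB/N background, and no transgene is named in the labels. Spheres were grown in suspension for 5 to 7 days in a medium with 20 ng/ml EGF, 10 ng/ml bFGF, 50 ng/ml IGF and 50 ng/ml heparan sulfate. The other 3 groups were spheres plated on poly-L-ornithine with a coat of 10 ng/ml laminin and cultured for 14 days. SCDM was DMEM/F12 with B27 and N2, 50 ng/ml BDNF and 50 ng/ml NT3, and SCDM/FGF was the same medium with 100 ng/ml bFGF. FIBCL was Neurobasal Medium with B27 and N2, bFGF, 20 µM Forskolin (which activates adenylyl cyclase), 20 µM ISX9, 1 µM I-BET (a BET bromodomain inhibitor), 10 µM Chir99021 (a GSK3 inhibitor) and 1000 U/ml LIF. The labels list bFGF for FIBCL at both 50 and 100 ng/ml, and they list neither BDNF nor NT3 for it.

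Integrins are cell surface receptors made of 1 alpha and 1 beta subunit, which join the extracellular matrix or other cells to the actin cytoskeleton. Laminins are cross-shaped heterotrimers of an alpha, a beta and a gamma chain that assemble basement membranes, and they are also the ligands of several integrins. In the cochlear nerve, Schwann cells and satellite glia lie within laminin-rich basement membranes, and growing axons use beta1 integrins to move over laminin.

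Levels are given as scaled TPM, which is the deposited TPM (transcript abundance normalised for gene length and library size) after each library was brought to a common scale, and differences are given on the scale of log2(scaled TPM + 1) with their standard error. A gene counted as higher or lower if its adjusted p from limma was under 0.05, and a stricter rule also asked for an absolute log2 difference of at least 1.5. Of the 37 members, 30 passed the filter of at least 1 TPM in at least 3 libraries. The other 7 included Itgad, Itgae, Itgb6, Itgb7, Lamb3 and Lamc3. A member that is present in only 1 group passed the filter through that group, and the counts below therefore cover 30 genes and not the full family.

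These groups limit what a difference between them can be read as. The spheres were made from dissociated modiolus without a sort that the labels describe, so glia, mesenchyme, macrophages and other cells could all be present. Spheres differed from the other groups in substrate as well as medium, and FIBCL differed from SCDM in basal medium, growth factors and small molecules together, so the parts played by these cannot be told apart. Because RNA came from whole cultures, fewer cells of a type and less RNA per cell also cannot be told apart. The 6 glial markers reported here (Sox10, S100b, Mbp, Fabp7, Erbb3 and Cdh19), part of a longer list, were lower in FIBCL than in SCDM, and their summed level was 398 to 423 scaled TPM in spheres, 159 to 184 in SCDM and 12.2 to 15.8 in FIBCL. Of 8 neuronal markers, 6 were tested and all 6 were higher in FIBCL than in SCDM, with a summed level of 418 to 444 against 19.2 to 22.5 scaled TPM.

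In FIBCL the family moved unevenly against SCDM, with most tested members lower and Itga3 and Lama5 far higher. Of the 30 tested members, 22 were lower in FIBCL and 6 were higher, where 39% and 32.7% of all tested genes were lower and higher. Under the stricter rule 11 members were lower and 2 were higher, where 9.98% and 7.89% of all tested genes passed. For 27 members the FIBCL values lay wholly outside the range of the SCDM values, as for 74.7% of all tested genes. The median difference of the 30 members was −0.73, against −0.07 over all tested genes. Without the scaling between libraries the median over all tested genes moved to −0.40, so that small differences depend on it. Against SCDM/FGF, 20 members were lower in FIBCL and 5 were higher (background 38.2% and 32.5%), 9 and 2 of them under the stricter rule (9.8% and 6.97%), and the values of 26 members lay apart (72.9%). The 5 became 3 on unscaled TPM and without FIBCL replicate 2. Against spheres, 17 were lower and 8 were higher (background 38.7% and 32.9%), 8 and 3 of them under the stricter rule (8.8% and 7.14%), and 25 lay apart (75%), and the 8 became 5 on unscaled TPM. FIBCL held the lowest mean of the 4 groups for 17 tested members and the highest for Itga3, Itga6, Itgb1, Itgb4 and Lama5, as the plot of the values by library shows. The share over all tested genes was not computed for this ranking, which is a description only. For Itga6 the FIBCL and SCDM/FGF libraries overlapped, and on unscaled TPM SCDM/FGF was higher. For Itgb4 these 2 groups overlapped on unscaled TPM.

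**Figure D1:**
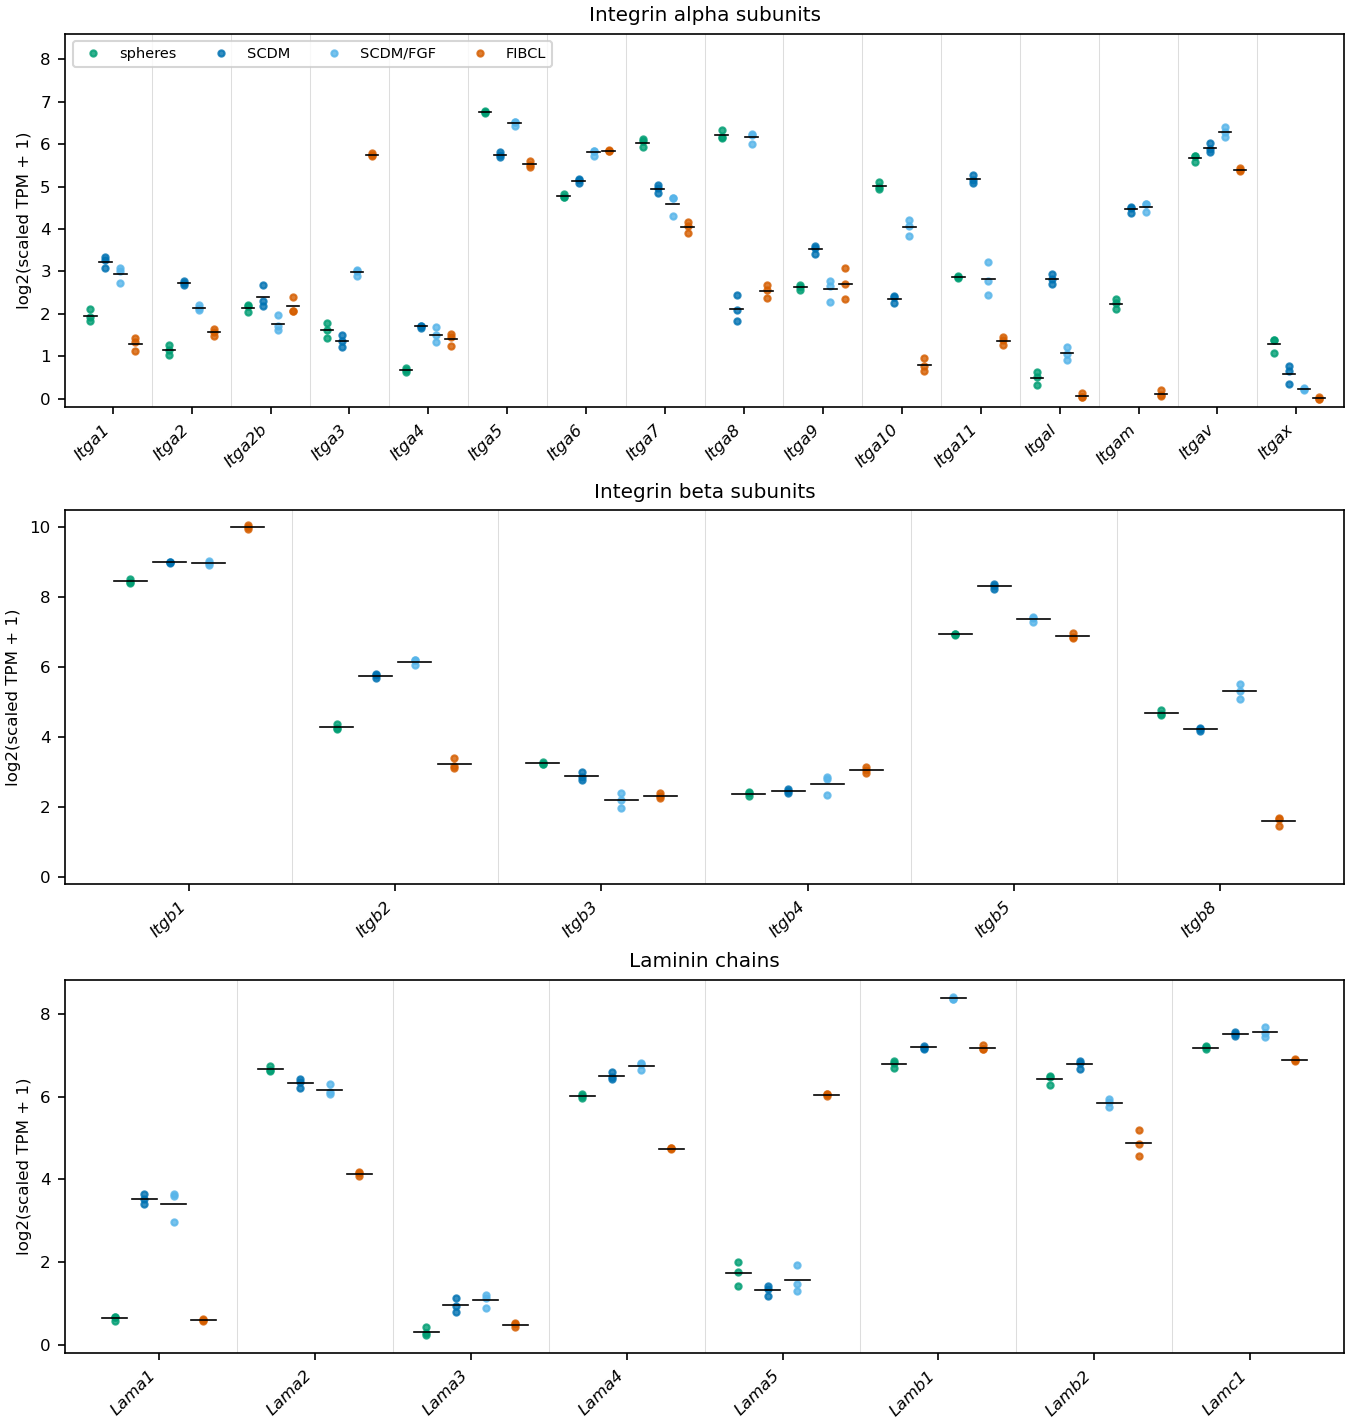
Level of each of the 30 tested integrin and laminin genes in each library, as log2(scaled TPM + 1), with 1 point a library and a bar at the mean of each group of 3. Itga3 and Lama5 stand out with FIBCL points near 6 while every other library is near or below 3, and Itga8 has SCDM and FIBCL far under spheres and SCDM/FGF.

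Between spheres and SCDM, more members were higher than lower in SCDM. Against spheres, 18 of the 30 members were higher in SCDM and 8 were lower (background 24.5% and 25.8%), and 5 and 2 passed the stricter rule (background 3.76% and 2.42%). The values of 26 members lay apart (58.6%). In SCDM/FGF, 17 were higher and 7 lower than in spheres (background 25% and 25.4%), 4 and 0 of them under the stricter rule (4.12% and 1.92%), and 25 lay apart (57%). Adding bFGF to SCDM split the family evenly, with 10 members higher and 10 lower in SCDM/FGF than in SCDM (background 21.8% and 21.3%). Of these, 3 and 2 passed the stricter rule (2.88% and 1.97%), and 20 members lay apart (51.6%). These comparisons share their sphere, SCDM and FIBCL libraries, so that a high or low level in 1 group enters 3 of them.

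**Figure D2:**
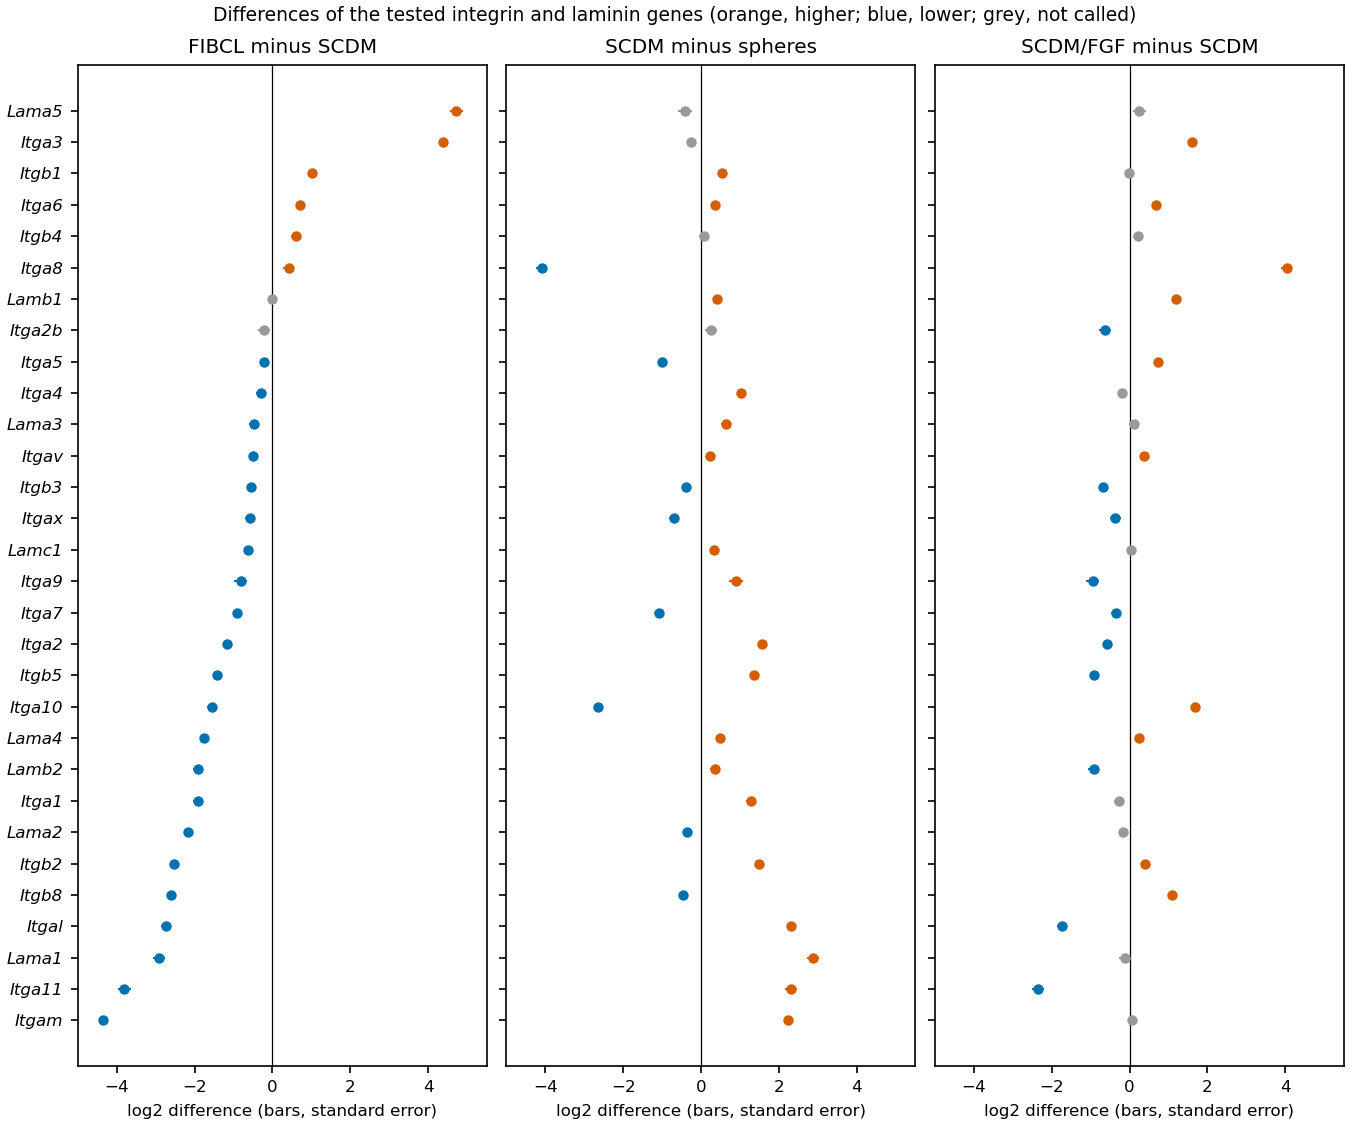
Log2 difference of each tested member with its standard error in 3 comparisons, ordered by FIBCL minus SCDM, with orange points higher, blue points lower and grey points not passing an adjusted p of 0.05. In FIBCL minus SCDM 2 genes lie beyond 4 on the upper side and most lie below 0, whereas SCDM/FGF minus SCDM has a single point near 4, Itga8.

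The laminin alpha chains carry the cell-binding domains of the trimer, and 1 of the 5 was higher in FIBCL than in SCDM while the other 4 were lower. Over all tested genes, 32.7% were higher and 39% lower. Lama5 (ENSMUSG00000015647, chr2:180176373-180225859, minus strand, GRCm38) encodes the widely used alpha5 chain of mature basement membranes. Its level was 65.7, 63.3 and 65.7 scaled TPM in the FIBCL libraries and 1.53, 1.69 and 1.27 in SCDM. In SCDM/FGF it was 1.79, 1.46 and 2.81, and in spheres 1.68, 3.03 and 2.38 scaled TPM. All 3 FIBCL libraries lay far above the other 9, which overlapped one another. The difference between FIBCL and SCDM was 4.73 ± 0.17 (adjusted p = 4.86e-10), and the FIBCL mean was 43.4 times the SCDM mean. Against SCDM/FGF and spheres it was 4.47 and 4.31.

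Lama2 and Lama4 are the alpha chains of Schwann cell and vascular basement membranes, and both were at their lowest in FIBCL. Lama2 (chr10:26980036-27619758, minus strand), whose loss causes muscular dystrophy with dysmyelination, was at 106, 97.8 and 99.5 scaled TPM in spheres and 84.2, 81.1 and 72.3 in SCDM. It was at 78.2, 68.0 and 66.3 in SCDM/FGF and 16.8, 16.1 and 17.1 in FIBCL. The 3 FIBCL libraries were all below the other 9, sphere libraries were the highest, and SCDM and SCDM/FGF overlapped. For Lama2, FIBCL minus SCDM was −2.18 ± 0.07 (adjusted p = 2.03e-10). Lama4 followed another order, with 63.9, 61.0 and 65.4 scaled TPM in spheres and 84.98, 96.1 and 87.9 in SCDM. It stood at 111, 99.1 and 109.7 in SCDM/FGF and 26.0, 25.8 and 25.6 in FIBCL. No library of 1 group overlapped with those of another for Lama4, and FIBCL minus SCDM was −1.76 ± 0.06 (adjusted p = 1.73e-10).

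Lama1, the alpha chain of early embryonic basement membranes, was present in the 2 control media and near 0.5 scaled TPM in spheres and FIBCL. Its level was 9.56, 11.6 and 10.4 scaled TPM in SCDM and 11.1, 6.84 and 11.6 in SCDM/FGF. In spheres it was 0.601, 0.490 and 0.605, and in FIBCL 0.514, 0.542 and 0.499 scaled TPM. The groups thus formed 2 sets, with SCDM and SCDM/FGF overlapping at the higher level and spheres and FIBCL overlapping below 1 scaled TPM. For Lama1, FIBCL minus SCDM was −2.92 ± 0.16 (adjusted p = 1.48e-08) and SCDM minus spheres 2.88 ± 0.16 (adjusted p = 6.06e-08). Lama3, an epithelial chain, ranged from 0.175 to 1.32 scaled TPM over all libraries.

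As a share of the summed laminin alpha TPM within a library, which does not depend on scaling between libraries, Lama5 made up 60.0, 59.6 and 60.2% in FIBCL. Its share in the other 9 libraries lay at a mean of 1.42 ± 0.448% (SD) in spheres, 0.820 ± 0.0788% in SCDM and 1.06 ± 0.355% in SCDM/FGF. The share of Lama2 was 60.3 ± 1.22% in spheres and 15.4 ± 0.254% in FIBCL, and that of Lama4 37.8 ± 0.970% and 23.9 ± 0.452%. The leading laminin alpha transcript was thus Lama2 in spheres, Lama4 in SCDM and SCDM/FGF, and Lama5 in FIBCL. The summed laminin alpha level itself was 108 ± 1.79 scaled TPM in FIBCL, 190.5 ± 13.6 in SCDM/FGF, 182 ± 9.16 in SCDM and 168 ± 5.21 in spheres (SD, n = 3).

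**Figure D3:**
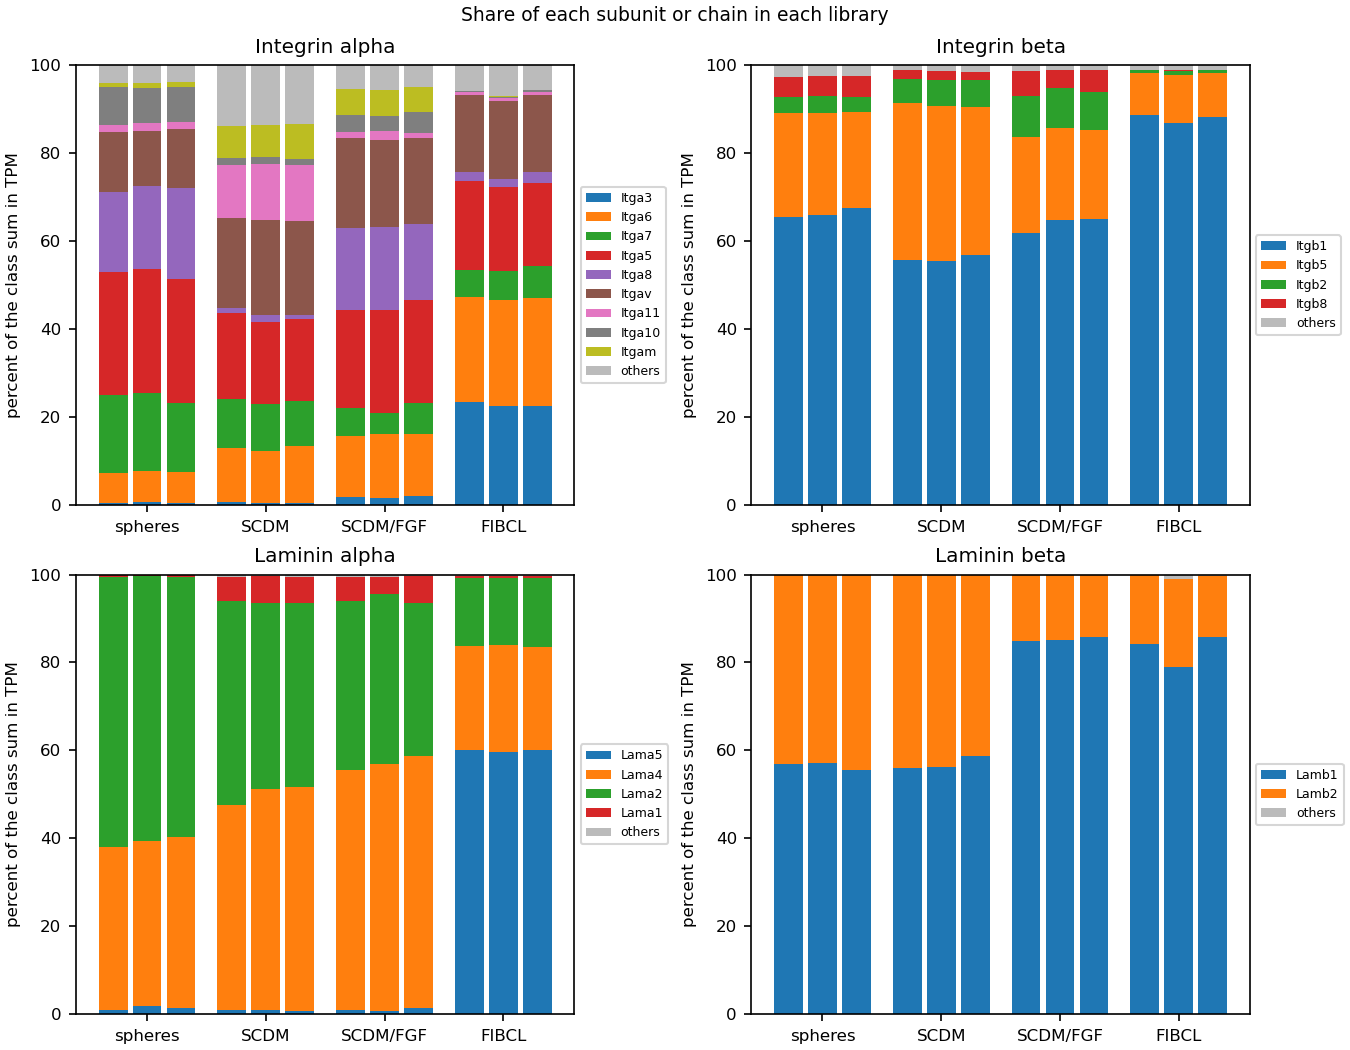
Share of each subunit or chain in the summed TPM of its class, in percent, as 1 stacked bar a library in the order of the replicates, for integrin alpha, integrin beta, laminin alpha and laminin beta. FIBCL is set apart by Lama5 near 60% of laminin alpha, Itga3 near 23% of integrin alpha and Itgb1 near 88% of integrin beta, and Lamb1 takes near 85% of laminin beta in SCDM/FGF.

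The promoters of the 2 genes that rose most in FIBCL, Lama5 and Itga3 (an integrin alpha subunit that binds laminin), are printed with that of Lama2, which fell, as examples of the start regions of the laminin chains and receptors. Each window holds 300 bases, from 250 before to 50 after a RefSeq transcription start (GRCm38.p6), read 5′ to 3′ on the minus strand, which is the gene's own strand. They are chr2:180225810-180226109 for Lama5, chr11:95076665-95076964 for the upstream of 2 Itga3 starts, and chr10:27616893-27617192 for Lama2. The GENCODE starts of Lama5 and Itga3 lie within their windows. That of Lama2 is at 27619758, so its window lies inside the gene and is not alike in position to the others. Capitals mark matches, on either strand, to TGACG (the short form of the cAMP response element), CTTTGA (the core of TCF/LEF sites), GGGCGG (the GC box) and TATAAA (the TATA box), which do not overlap here.
Lama5: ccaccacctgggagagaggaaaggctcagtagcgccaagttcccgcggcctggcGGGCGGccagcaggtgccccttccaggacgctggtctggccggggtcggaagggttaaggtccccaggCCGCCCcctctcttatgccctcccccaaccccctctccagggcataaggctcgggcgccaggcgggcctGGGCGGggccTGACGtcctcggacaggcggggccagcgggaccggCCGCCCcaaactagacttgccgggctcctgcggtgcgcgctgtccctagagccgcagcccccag
Itga3: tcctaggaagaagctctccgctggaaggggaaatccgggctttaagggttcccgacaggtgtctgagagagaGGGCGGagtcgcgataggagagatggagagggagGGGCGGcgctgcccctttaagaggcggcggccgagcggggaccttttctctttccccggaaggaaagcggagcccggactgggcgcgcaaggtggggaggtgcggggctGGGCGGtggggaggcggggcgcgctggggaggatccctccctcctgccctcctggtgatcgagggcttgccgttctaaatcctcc
Lama2: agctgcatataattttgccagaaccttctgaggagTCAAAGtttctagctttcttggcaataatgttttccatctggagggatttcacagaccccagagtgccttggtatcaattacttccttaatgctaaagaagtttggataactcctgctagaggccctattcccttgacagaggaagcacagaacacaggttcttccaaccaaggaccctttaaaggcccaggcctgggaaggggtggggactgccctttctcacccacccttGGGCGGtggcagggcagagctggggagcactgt
The Lama5 window held 4 GC boxes and 1 TGACG, which begins 49 bases before the start, and the Itga3 window held 3 GC boxes. The Lama2 window held 1 CTTTGA on the opposite strand and 1 GC box after the start. GC content was 72.7% for Lama5, 66.7% for Itga3 and 50.3% for Lama2. There were 24, 24 and 1 CpG dinucleotides in the same order, where the median of 32851 RefSeq windows was 7, 20% held at least 24 and 14.1% held at most 1. Windows existed for 23 of the 37 members, 26 in all. TGACG was in 5 of the 26 (20.8% of all windows), CTTTGA in 5 (16%), GGGCGG in 12 (35.7%) and TATAAA in 0 (13.6%). Among the other windows of members higher in FIBCL than in SCDM, those of Itgb1 and Itga8 held 27 and 23 CpG. The other Itga3 window held 5. Among members that were lower, the window of Itgav held 24 and that of Itgb5 20. The remaining windows of lower members held from 1 in Lama2 to 16 in Itga11. Like that of Lama2, the GENCODE starts of Itga9 and Itgb8 lie outside their windows. Itga6 and Itgb4, which were also higher, have no window, and the Itga8 call depended on the scaling. The CpG numbers of higher and lower members thus overlapped, though most lower members held fewer, and the difference was not tested. A match is a run of letters and not evidence that a factor binds.

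Among the laminin beta and gamma chains, Lamb1 was set apart by its level in SCDM/FGF. Lamb1, the common beta chain, was at 340.2, 329 and 325 scaled TPM in SCDM/FGF and 141, 149 and 144 in SCDM. In FIBCL it was at 149.8, 142 and 140.3, and in spheres at 115, 102 and 112 scaled TPM. The SCDM/FGF libraries were above all others, FIBCL and SCDM overlapped, and spheres were lowest. SCDM/FGF minus SCDM was 1.19 ± 0.05 (adjusted p = 4.69e-09). FIBCL minus SCDM was −0.01 ± 0.05 (adjusted p = 0.875), but on unscaled TPM Lamb1 fell by 0.41 (adjusted p = 2.14e-04), so its place between these groups depends on the scaling. The same holds for FIBCL above spheres, where 0.39 ± 0.05 (adjusted p = 1.70e-05) became −0.15 (adjusted p = 0.0693) on unscaled TPM.

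Lamb2, the beta chain of synaptic and kidney basement membranes, went the other way with bFGF. It was at 111, 115 and 101 scaled TPM in SCDM, 60.7, 57.6 and 52.7 in SCDM/FGF and 27.8, 35.9 and 22.8 in FIBCL. In spheres it was at 87.3, 76.8 and 89.3, between SCDM and SCDM/FGF without overlap. SCDM/FGF minus SCDM was −0.93 ± 0.13 (adjusted p = 1.50e-04) and FIBCL minus SCDM −1.91 ± 0.13 (adjusted p = 1.14e-07). SCDM minus spheres was 0.37 ± 0.13 (adjusted p = 0.0373), a call that was lost on unscaled TPM (0.22, adjusted p = 0.233) and without any 1 sphere library or SCDM replicate 1 or 2 (adjusted p from 0.0501 to 0.123). Of the summed laminin beta TPM, Lamb1 took 84.8, 85.1 and 85.9% in SCDM/FGF and 84.2, 79.0 and 85.7% in FIBCL. It took 56.03, 56.3 and 58.7% in SCDM and 56.8, 57.0 and 55.5% in spheres, below both of the others.

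Lamc1, the gamma chain of most laminins, stayed within 114 to 204 scaled TPM. Its level was 147, 141 and 146 scaled TPM in spheres and 186, 183 and 177 in SCDM. It was at 184, 173 and 204 in SCDM/FGF and 119, 114 and 117 in FIBCL. FIBCL libraries were the lowest, and SCDM and SCDM/FGF overlapped at the top. Lamc1 differed by −0.64 ± 0.05 from SCDM to FIBCL (adjusted p = 7.38e-07). Lamb3, a chain of the laminin of epithelial anchoring sites, and Lamc3 did not pass the filter. Their highest values were 1.77 scaled TPM for Lamb3 and 0.565 for Lamc3, both in FIBCL.

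Among the receptors for laminin, Itga3 was, like Lama5, far higher in FIBCL than in any other group. The product of Itga3 (ENSMUSG00000001507, chr11:95044474-95076801, minus strand) pairs with beta1 integrin and binds laminins that contain the alpha5 or alpha3 chain. Itga3 was at 54.8, 53.0 and 51.4 scaled TPM in FIBCL and 1.84, 1.57 and 1.34 in SCDM. In SCDM/FGF it was at 7.02, 6.40 and 7.23, and in spheres at 2.09, 2.46 and 1.72 scaled TPM. FIBCL libraries were far above all others and SCDM/FGF libraries were above SCDM and spheres, which overlapped. The difference was 4.39 ± 0.10 for FIBCL minus SCDM (adjusted p = 1.47e-11), with a ratio of means of 33.5. It was 2.78 ± 0.10 for FIBCL minus SCDM/FGF (adjusted p = 5.87e-10) and 1.61 ± 0.10 for SCDM/FGF minus SCDM (adjusted p = 2.21e-07).

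The other 2 laminin-binding alpha subunits moved in opposite directions. Itga6, which pairs with beta1 or beta4, was at 56.5, 56.9 and 56.3 scaled TPM in FIBCL and 56.5, 56.6 and 51.6 in SCDM/FGF. It was at 33.0, 34.3 and 35.2 in SCDM and 25.9, 26.1 and 27.4 in spheres. FIBCL and SCDM/FGF overlapped, with a difference of 0.04 ± 0.05 (adjusted p = 0.435) that reversed to −0.27 (adjusted p = 0.00257) on unscaled TPM, and both were above SCDM and spheres. Itga6 rose by 0.71 ± 0.05 from SCDM to FIBCL (adjusted p = 8.71e-08) and by 0.67 ± 0.05 from SCDM to SCDM/FGF (adjusted p = 5.28e-07). Itga7, a laminin receptor of muscle and Schwann cells, was at 68.1, 66.1 and 60.2 scaled TPM in spheres and 30.5, 31.7 and 27.7 in SCDM. It was at 25.7, 18.8 and 25.8 in SCDM/FGF and 13.9, 15.9 and 17.0 in FIBCL. The 4 groups did not overlap and fell in that order, with FIBCL minus SCDM at −0.90 ± 0.12 (adjusted p = 2.51e-05). The call between SCDM/FGF and SCDM (−0.35 ± 0.12, adjusted p = 0.0286) was lost in a model of those 2 groups alone (adjusted p = 0.0798) and without SCDM replicate 1 or 2 or SCDM/FGF replicate 2 (adjusted p from 0.0724 to 0.0905).

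Itgb1 (ENSMUSG00000025809, chr8:128685654-128733200, plus strand), the partner of most of the alpha subunits here, was the most abundant member. Its level was 1058, 984 and 1022 scaled TPM in FIBCL and 514, 507 and 502 in SCDM. It was 481, 523 and 503 in SCDM/FGF and 338, 342 and 364 in spheres. FIBCL libraries were the highest, SCDM and SCDM/FGF overlapped, and spheres were the lowest. Itgb1 rose by 1.01 ± 0.04 from SCDM to FIBCL (adjusted p = 2.22e-09), and by 0.54 ± 0.04 from spheres to SCDM (adjusted p = 1.31e-06). As a share of the summed integrin beta TPM, Itgb1 was 87.9 ± 0.969% in FIBCL, 63.9 ± 1.81% in SCDM/FGF, 56.1 ± 0.745% in SCDM and 66.2 ± 1.10% in spheres. Itgb4, the beta subunit of hemidesmosomes and of myelinating Schwann cells, was low throughout, from 3.92 to 7.89 scaled TPM, and its call between FIBCL and SCDM (0.60 ± 0.12, adjusted p = 0.00107) was lost on unscaled TPM (0.26, adjusted p = 0.106). Over the 12 libraries, the genes with the pattern most like that of Itgb1 among 6062 with a mean of at least 20 scaled TPM were Odc1, Ppa1 and Cct2, with Pearson correlations of 0.996, 0.995 and 0.995. For Lamc1 they included Ext2 (0.983) and Serp1 (0.981). These correlations describe 4 groups of 3 libraries and are not a test.

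The 4 collagen-binding alpha subunits, Itga1, Itga2, Itga10 and Itga11, were all lower in FIBCL than in SCDM, with a median of −1.74. Of all tested genes, 39% were lower. Itga11, a fibrillar collagen receptor of mesenchymal cells, was at 32.9, 37.7 and 34.5 scaled TPM in SCDM and 5.87, 8.36 and 4.49 in SCDM/FGF. It was at 6.25, 6.20 and 6.43 in spheres and 1.60, 1.39 and 1.75 in FIBCL. SCDM libraries were far above all others, spheres and SCDM/FGF overlapped, and FIBCL was lowest. For Itga11, FIBCL minus SCDM was −3.80 ± 0.16 (adjusted p = 1.28e-09), and SCDM/FGF minus SCDM was −2.35 ± 0.16 (adjusted p = 2.92e-07).

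Itga10, best known from cartilage, had its highest level in spheres, at 33.4, 29.6 and 30.7 scaled TPM, and was at 15.7, 13.3 and 17.5 in SCDM/FGF. It was at 4.30, 4.36 and 3.75 in SCDM and 0.586, 0.936 and 0.723 in FIBCL. The 4 groups did not overlap. Between SCDM/FGF and SCDM Itga10 rose by 1.68 ± 0.11 (adjusted p = 2.90e-07), where Itga11 fell. For Itga10, FIBCL minus SCDM was −1.56 ± 0.11 (adjusted p = 1.56e-07). In the annotation 33.5% of its exonic bases lie within exons of Gm42957, a gene of at most 1.19 TPM, so that reads could be divided between them.

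Itga1 was at 7.41, 9.11 and 8.64 scaled TPM in SCDM, 7.04, 7.53 and 5.66 in SCDM/FGF, 2.78, 2.56 and 3.32 in spheres and 1.52, 1.20 and 1.71 in FIBCL. SCDM and SCDM/FGF overlapped above the other 2 groups, and FIBCL was lowest, with FIBCL minus SCDM at −1.92 ± 0.13 (adjusted p = 8.93e-08). Itga2 ranged from 1.05 to 5.84 scaled TPM and was highest in SCDM, where it exceeded spheres by 1.58 ± 0.09 (adjusted p = 9.91e-08).

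The subunits that recognise the RGD sequence of fibronectin and related ligands included the gene with the largest response to bFGF in the family. Itga8 (ENSMUSG00000026768, chr2:12106632-12301922, minus strand), a receptor for nephronectin and fibronectin, was at 70.4, 69.7 and 79.2 scaled TPM in spheres and 3.29, 4.41 and 2.54 in SCDM. With bFGF in SCDM/FGF it was at 75.1, 73.6 and 63.0, and in FIBCL, which also held bFGF, at 4.88, 4.19 and 5.45 scaled TPM. Spheres and SCDM/FGF overlapped at the high level, and SCDM and FIBCL overlapped at the low level. SCDM minus spheres was −4.09 ± 0.14 (adjusted p = 1.67e-09), SCDM/FGF minus SCDM was 4.04 ± 0.14 (adjusted p = 1.66e-09), and SCDM/FGF minus spheres was −0.05 ± 0.14 (adjusted p = 0.788). FIBCL minus SCDM/FGF was −3.62 ± 0.14 (adjusted p = 8.71e-10). FIBCL minus SCDM passed at 0.42 ± 0.14 (adjusted p = 0.0194), but the libraries overlapped and the call was lost on unscaled TPM (0.10, adjusted p = 0.559), in a model of these 2 groups alone (adjusted p = 0.0698), and without SCDM replicate 3 (0.27, adjusted p = 0.0802) or FIBCL replicate 3 (0.34, adjusted p = 0.0738). An antisense gene, E030013I19Rik, shares 372 exonic bases with Itga8 and reached 13.9 TPM.

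Itga5, the main fibronectin receptor subunit, was at 107, 105 and 109 scaled TPM in spheres and 90.8, 91.4 and 85.5 in SCDM/FGF. It was at 52.9, 55.3 and 50.8 in SCDM and 47.9, 44.8 and 43.3 in FIBCL. The 4 groups did not overlap, and both plated groups without small molecules were below spheres, with a ratio of means of 0.495 in SCDM (adjusted p = 2.05e-08) and 0.833 in SCDM/FGF (adjusted p = 9.04e-04). The difference between FIBCL and SCDM was small, at −0.22 ± 0.05 (adjusted p = 0.00159). Itgav, which pairs with several beta subunits, was at 83.6, 76.7 and 70.6 scaled TPM in SCDM/FGF and 54.99, 63.7 and 57.8 in SCDM. It was at 51.9, 46.8 and 52.0 in spheres and 41.0, 42.1 and 40.1 in FIBCL, without overlap between groups. For Itgav, FIBCL minus SCDM was −0.51 ± 0.07 (adjusted p = 5.77e-05). Itga2b, the alpha subunit of the platelet fibrinogen receptor, ranged from 2.07 to 5.46 scaled TPM and did not pass between FIBCL and SCDM (−0.22 ± 0.15, adjusted p = 0.210, or −0.53 with adjusted p = 0.00761 on unscaled TPM).

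Besides Itgb1, which was higher, the tested beta subunits that pair with Itgav were Itgb3, Itgb5 and Itgb8. All 3 were lower in FIBCL than in SCDM, as were 39% of all tested genes. Itgb5, a vitronectin receptor subunit, was at 329, 320.4 and 297 scaled TPM in SCDM and 169, 170.2 and 156 in SCDM/FGF. It was at 123, 122 and 119 in spheres and 113, 124 and 116 in FIBCL, which overlapped. SCDM libraries were the highest, and FIBCL minus SCDM was −1.42 ± 0.05 (adjusted p = 5.23e-10). Itgb8, whose dimer with Itgav activates latent TGF-beta, was at 24.4, 23.8 and 26.1 scaled TPM in spheres and 18.0, 17.9 and 16.9 in SCDM. It was at 44.8, 33.0 and 38.8 in SCDM/FGF and 1.76, 2.17 and 2.22 in FIBCL. The 4 groups did not overlap, SCDM/FGF was highest and FIBCL lowest. Itgb8 differed between FIBCL and SCDM by −2.61 ± 0.10 (adjusted p = 8.54e-10), and between SCDM/FGF and SCDM by 1.09 ± 0.10 (adjusted p = 5.26e-06). Itgb3 ranged from 2.95 to 8.79 scaled TPM and was highest in spheres, with FIBCL minus SCDM at −0.55 ± 0.11 (adjusted p = 7.20e-04). Itgb6, an epithelial subunit, was not tested, and its 1 value above 0.1 scaled TPM was 2.22 in SCDM replicate 3.

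Itga4 and Itga9, which bind VCAM-1 and fibronectin, were low. Itga4 ranged from 0.538 to 2.31 scaled TPM and Itga9 from 3.88 to 11.2. Both were highest on average in SCDM, with FIBCL minus SCDM at −0.30 ± 0.12 for Itga4 (adjusted p = 0.0394) and −0.82 ± 0.17 for Itga9 (adjusted p = 0.00125). The Itga4 call was lost with the replicate block (adjusted p = 0.0664) and without any 1 of SCDM replicates 1, 2 and 3 or FIBCL replicates 1 and 3 (adjusted p from 0.0544 to 0.149).

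Of the leukocyte integrins, Itgb2, Itgam and Itgal were higher in SCDM than in spheres and lower in FIBCL than in SCDM, and Itgax was highest in spheres. Itgb2, the beta subunit shared by the leukocyte integrins, was at 73.0, 72.7 and 65.2 scaled TPM in SCDM/FGF and 50.6, 55.2 and 53.2 in SCDM. It was at 17.9, 19.5 and 17.7 in spheres and 7.95, 9.64 and 7.70 in FIBCL, and the 4 groups did not overlap. FIBCL minus SCDM was −2.52 ± 0.08 (adjusted p = 1.63e-10), and SCDM minus spheres was 1.48 ± 0.08 (adjusted p = 5.48e-08).

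Itgam, its partner in complement receptor 3 of macrophages and microglia, was at 19.8, 22.0 and 21.6 scaled TPM in SCDM and 23.2, 23.0 and 20.2 in SCDM/FGF. It was at 3.30, 4.11 and 3.79 in spheres and 0.0598, 0.0493 and 0.158 in FIBCL. SCDM and SCDM/FGF overlapped at the top, and the FIBCL libraries were near 0. FIBCL minus SCDM was −4.34 ± 0.09 (adjusted p = 7.58e-12). Of its exonic bases, 68.7% lie in exons of Gm49368, which reached 0.69 TPM, and how the counting divided such reads is not stated.

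Itgal, the alpha subunit of the lymphocyte adhesion receptor LFA-1, was at 5.51, 6.64 and 6.03 scaled TPM in SCDM and 1.08, 0.896 and 1.34 in SCDM/FGF. It was at 0.432, 0.262 and 0.546 in spheres and 0.0359, 0.0985 and 0.0263 in FIBCL, again with no overlap between groups. For Itgal, FIBCL minus SCDM was −2.74 ± 0.12 (adjusted p = 1.89e-09), and SCDM/FGF minus SCDM was −1.75 ± 0.12 (adjusted p = 3.28e-07), while Itgam did not pass in the latter comparison (0.06 ± 0.09, adjusted p = 0.633). Itgax, a dendritic cell and macrophage subunit, was at most 1.62 scaled TPM and lower in SCDM than in spheres (−0.69 ± 0.13, adjusted p = 0.00101). It passed the filter only through the sphere libraries, so the filter favoured a higher level there and this call is no separate support. Itgad, Itgae and Itgb7 were not tested, and their highest values were 0.0699, 0.0945 and 0.972 scaled TPM.

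All 10 markers of macrophages and other leukocytes (Ptprc, Csf1r, Cd68, Adgre1, Cx3cr1, C1qa, C1qb, Tyrobp, Fcer1g and Spi1) were higher in SCDM than in spheres and lower in FIBCL than in SCDM. Their summed level was 1693 to 1835 scaled TPM in SCDM and 1764 to 1893 in SCDM/FGF, against 141 to 179 in spheres and 175 to 205 in FIBCL. In FIBCL, Cd68 alone, a lysosomal protein found in other cells as well, gave 164 ± 12.3 scaled TPM of this sum (SD). C1qa was at 0.197 to 0.562 there, C1qb at 0.0838 to 0.283, Csf1r at 0.171 to 0.538 and Cx3cr1 at 0 to 0.111. Tyrobp was still at 9.76 to 15.0 scaled TPM in FIBCL, Fcer1g at 6.77 to 7.13, Adgre1 at 3.10 to 3.68, Spi1 at 1.16 to 2.10 and Ptprc at 0.565 to 0.945. The part of macrophage number in the differences of Itgb2, Itgam, Itgal and Itgax was not tested.

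**Figure D4:**
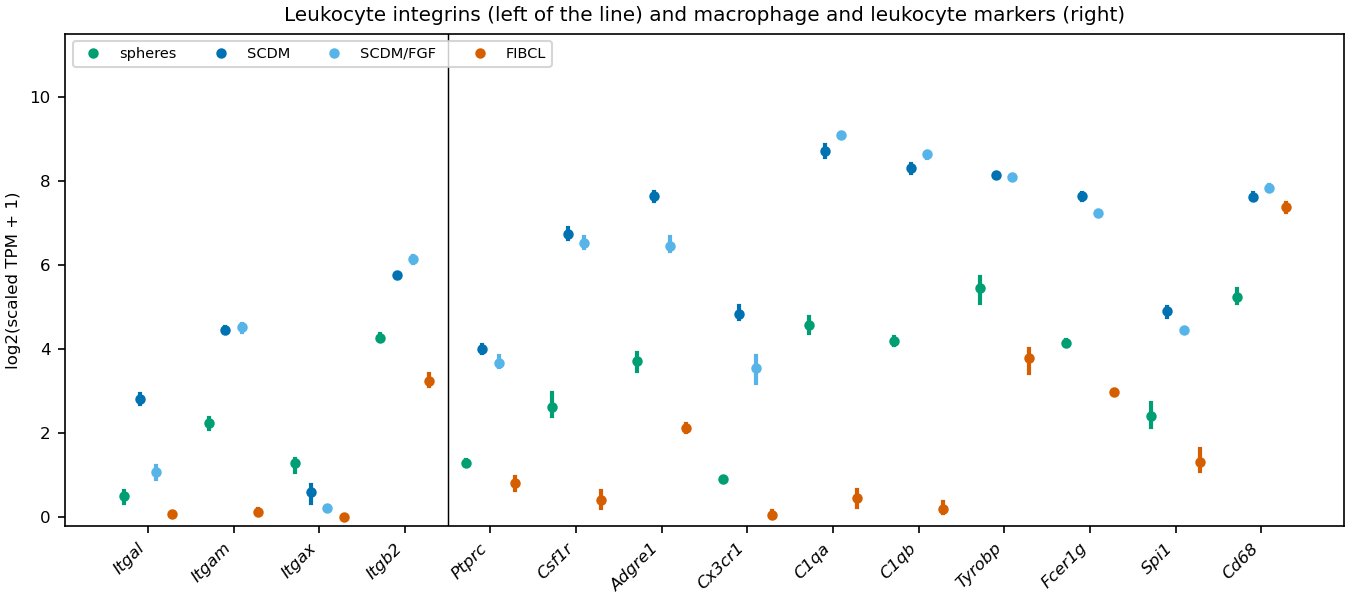
Level of the 4 tested leukocyte integrins and of 10 macrophage and leukocyte markers in each group, as log2(scaled TPM + 1), with a point at the group mean and a line from the lowest to the highest of 3 libraries. Itgb2, Itgam and 9 markers sit well above the sphere and FIBCL points in both SCDM media, whereas Itgax is highest in spheres and Cd68 stays high in FIBCL.

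Mesenchymal markers differed between the groups as well. Of Pou3f4, Tbx18, Prrx1, Pdgfra, Col1a1, Col1a2, Twist1 and Dcn, 6 of 8 were lower in FIBCL than in SCDM and 2, Prrx1 and Twist1, were higher. Between SCDM and spheres 3 were higher in SCDM and 4 lower. Their summed level was 4534 to 4722 scaled TPM in SCDM, 2817 to 2857 in SCDM/FGF, 1789 to 1810 in spheres and 221 to 236 in FIBCL. Most of the SCDM sum was Col1a2, at 3385 ± 144 scaled TPM there and 492 ± 17.6 in spheres (SD, n = 3). The order of these sums is therefore largely that of 1 gene. On average, Pou3f4 and Tbx18 were highest in spheres, though for Pou3f4 the sphere and SCDM libraries overlapped. Col1a1 and Col1a2 were highest in SCDM, Pdgfra and Dcn in SCDM/FGF, and Prrx1 and Twist1 in FIBCL. The part of mesenchymal cells in the differences of Itga11, Lama2, Lama4 and Lamb2 was not tested.

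As a class, the integrin alpha transcripts summed to 233 ± 3.71 scaled TPM in FIBCL, 387 ± 21.1 in SCDM/FGF, 279 ± 13.9 in SCDM and 380.3 ± 7.93 in spheres (SD, n = 3). The integrin beta transcripts summed to 1161 ± 30.1, 786 ± 19.1, 906 ± 20.9 and 525 ± 12.8 scaled TPM in the same order. On scaled TPM the alpha sum was thus lowest and the beta sum highest in FIBCL. The place of the beta sum depends on the scaling, with log2 offsets of −0.39 to −0.26 in FIBCL and 0.07 to 0.10 in SCDM. On unscaled TPM the beta sums of FIBCL and SCDM overlapped. Within the alpha sum, Itga3 took 23.3, 22.4 and 22.4% in the FIBCL libraries against at most 1.99% in any other library, and Itga6 took 24.1, 24.1 and 24.6%. Itga5 led the alpha sum in spheres (28.2 ± 0.186%) and SCDM/FGF (23.1 ± 0.628%), and Itgav led in SCDM (21.1 ± 0.670%).

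The lists of proteins around integrins differed in direction, where 39% and 32.7% of all tested genes were lower and higher in FIBCL than in SCDM. Of the activators and adaptors that link integrins to actin, 29 of 30 were tested, and 23 were lower and 4 higher in FIBCL than in SCDM, with a median of −0.66. Tns3, a tensin, fell from 81.2 ± 3.19 to 15.1 ± 0.663 scaled TPM (−2.35 ± 0.05), Tgfb1i1, which encodes the paxillin relative Hic-5, from 50.0 ± 2.72 to 10.1 ± 0.896 (−2.21 ± 0.07), and Fermt3, the kindlin of blood cells, from 22.1 ± 0.875 to 1.45 ± 0.208 (−3.24 ± 0.10). Parvb, a parvin of the complex around integrin-linked kinase, rose from 6.31 ± 2.52 to 66.1 ± 1.32 (3.25 ± 0.17). Of 12 membrane proteins that associate with integrins, 8 were higher and 3 lower, with a median of 0.60. Among these Cd151, the tetraspanin that binds laminin-binding integrins, rose from 87.2 ± 5.99 to 256 ± 8.34 scaled TPM (1.55 ± 0.06). Cd47 rose from 61.5 ± 2.62 to 199 ± 7.33 (1.68 ± 0.06), the hyaluronan receptor Cd44 from 30.8 ± 0.790 to 137 ± 3.77 (2.11 ± 0.05), and the urokinase receptor Plaur from 10.2 ± 2.81 to 42.4 ± 1.70 (1.98 ± 0.16).

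Of the basement membrane partners and other laminin receptors, 21 of 22 were tested, and 13 were lower and 3 higher in FIBCL than in SCDM, with a median of −1.09. The collagen IV genes Col4a1 and Col4a2 fell from 508 ± 51.7 to 29.9 ± 1.87 and from 348 ± 21.8 to 34.6 ± 2.03 scaled TPM, differences of −4.04 ± 0.09 and −3.29 ± 0.07. Nid1, which bridges laminin and collagen IV networks through the laminin gamma1 chain, fell from 509 ± 21.6 to 82.3 ± 3.99 (−2.62 ± 0.05). Bcam, a receptor for the laminin alpha5 chain, rose from 1.71 ± 0.425 to 24.4 ± 0.439 (3.25 ± 0.13). It was at 2.27 ± 0.439 in spheres and 7.87 ± 0.305 scaled TPM in SCDM/FGF, and the group means of Itga3 had the same order.

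Of the other integrin ligands, 19 of 20 were tested, and 14 were lower and 4 higher, with a median of −1.54. Postn, a matrix protein of mesenchyme, went from 1724 ± 70.6 scaled TPM in SCDM to 0.626 ± 0.121 in FIBCL (−10.05 ± 0.11). Emilin1 went from 377 ± 17.0 to 9.92 ± 2.63 (−5.14 ± 0.13), the connective tissue growth factor gene Ccn2 from 645 ± 18.7 to 23.4 ± 3.81 (−4.74 ± 0.10), and Vcam1, the ligand of Itga4, from 85.3 ± 3.15 to 3.01 ± 0.276 (−4.43 ± 0.10). Of 7 collagen receptors outside the integrins and netrin relatives, 6 were tested, and 2 were higher and 3 lower. The discoidin domain receptors split, with Ddr1 at 0.54 ± 0.07 and Ddr2 at −1.05 ± 0.10, as did the netrin-G genes, with Ntng2 at 2.13 ± 0.10 and Ntng1 at −2.55 ± 0.14. Each difference named in the pathway lists passed an adjusted p of 0.05 in limma, the largest of these being 2.02e-05 for Ddr1, and for each of them the values of these groups lay apart.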

How the data were processed

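RNA-seq was made from 12 libraries of mouse cochlear glial spheres and differentiated cultures (4 groups of 3, grouped by the sample titles). The authors prepared poly(A)-selected libraries, used SeqPrep and Sickle for trimming, TopHat for alignment, RSEM for gene abundance and EdgeR for differences, and they deposited TPM values (transcript abundance normalized for gene length and library size) for 55487 genes. The genome build and the strand setting of the counting are not given in the sources used here. FIBCL columns are named FIBC in the table and were matched to FIBCL, the group of that kind in the labels. TPM keeps no read numbers, so depth is unknown and no counting interval was computed. From 21625 to 22281 genes were above 0 in a library. Listed values summed to 899295 to 994845 TPM, lowest in FIBCL.

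A gene was kept if 3 or more libraries had 1 TPM or more (16016 genes). Libraries were scaled by the trimmed mean (30% off each end) of log2 ratios to the average library over the 8434 genes that reached 5 TPM in every library. The log2 offsets ran from −0.39 to 0.25. Values were tested as log2(scaled TPM + 1), which understates the change of low genes, in limma 3.58.1 (R 4.3.3) with a variance trend, 1 model of 4 groups and Benjamini-Hochberg adjustment over all 16016 genes within each of 6 comparisons. The model was checked on simulated data. Figures were drawn in Python 3.11.15 with pandas 2.3.3 and matplotlib 3.10.9. P-values measure the spread between these libraries, and whether replicates came from separate animals is not stated. Members, gene lists and rules were chosen with earlier results of these data known. Values in every library are given for the 22 members with a mean of at least 20 scaled TPM in a group, or called between FIBCL and SCDM with a log2 difference of 1.5 or more in size. Up to 4 genes of each pathway list are named, by the largest difference between FIBCL and SCDM among genes past an adjusted p of 0.05 with at least 10 scaled TPM in a group. Alternatives were 3 other scalings, pseudocounts of 0.1 and 0.5, filters of 5 TPM or a value above 0, a model of the compared groups alone, no variance trend, the replicate number as a block, and each library left out. Positions are from GENCODE M21 (GRCm38), where all 37 members had the same symbol. Promoter windows are from RefSeq (GRCm38.p6). Protein sequences were not used here. Some genes of the family and of the marker and pattern lists are not reported here, and the glial summary leaves them out.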

Additional observations from a re-analysis of the deposited data

Results flagged for a closer look

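In each of 2 genes the SCDM and SCDM/FGF cultures left the sphere level in opposite directions, and the difference between the 2 media was itself tested. Itgb8 was lower in SCDM than in spheres (−0.47 ± 0.10, adjusted p = 0.00257) and higher in SCDM/FGF (0.62 ± 0.10, adjusted p = 3.78e-04), a difference between the media of 1.09 ± 0.10. Lamb2 was higher in SCDM than in spheres (0.37 ± 0.13, adjusted p = 0.0373) and lower in SCDM/FGF (−0.56 ± 0.13, adjusted p = 0.00423), a difference between the media of −0.93 ± 0.13. The directions held for all 3 libraries of each group, which did not overlap with the sphere libraries. The Lamb2 call between SCDM and spheres was lost on unscaled TPM and on leaving out any 1 sphere library or SCDM replicate 1 or 2, with adjusted p from 0.00747 to 0.233 over all alternatives. Groups of 3 are too small for a check of single outlying libraries.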

How the results depend on the processing

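The calls and directions of the 30 tested members over 6 comparisons (180 values) held under the median of ratios scaling and a pseudocount of 0.5. On unscaled TPM, 153 of 180 kept both. There the number of members higher in FIBCL went from 5 to 3 against SCDM/FGF and from 8 to 5 against spheres, and the signs turned for Itga6 (−0.27), Itga9 (−0.13) and Itgb3 (−0.11) in FIBCL minus SCDM/FGF, for Itga2b (−0.39), Itga9 (−0.38) and Lamb1 (−0.15, which had passed at 0.39) in FIBCL minus spheres, for Itgb4 (−0.0388) in SCDM minus spheres, and for Itgam (−0.0194) and Lamc1 (−0.0506) in SCDM/FGF minus SCDM. Upper quartile scaling turned Lamb1 (0.0361, FIBCL minus SCDM), Itgb5 (0.0208, FIBCL minus spheres) and Lamc1 (−0.0043, SCDM/FGF minus SCDM). The cause was not tested.

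With 1 library left out, 1030 of 1080 values kept both, and no difference that passed an adjusted p of 0.05 changed sign. The count higher in FIBCL than in SCDM/FGF ranged from 3 to 5, with 3 without FIBCL replicate 2 (Itga2b and Itgb4). Signs turned only in differences that had not passed, given as their ranges. These were Lamb1 (−0.0381 to 0.0107) in FIBCL minus SCDM, Itga6 (−0.0005 to 0.0659) and Itga9 (−0.0536 to 0.31) in FIBCL minus SCDM/FGF, Itga2b (−0.0728 to 0.087) and Itga9 (−0.11 to 0.26) in FIBCL minus spheres. They also were Itga8 (−0.0984 to 0.0263), Itga11 (−0.25 to 0.14) and Itga9 (−0.15 to 0.0893) in SCDM/FGF minus spheres, and Itgb1 (−0.0461 to 0.0143), Lama1 (−0.24 to 0.10) and Lamc1 (−0.0311 to 0.0892) in SCDM/FGF minus SCDM.

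Same-numbered libraries of different groups had correlations from −0.121 to 0.0976 over 18 pairs, 0 of them over 0.1, and 8 were the best match of their number. Between SCDM and FIBCL each same-numbered pair was the best match, at 0.0165, 0.0976 and 0.0386. Whether same-numbered libraries were prepared together cannot be told from these values. With the replicate number as a block, 6 members were higher and 21 lower in FIBCL than in SCDM, 177 of 180 values kept their call, and Itga4 (FIBCL against SCDM) and Itgax (SCDM/FGF against SCDM) lost it. TPM tables keep no read numbers, so the counting error of genes near 1 scaled TPM is unknown.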

Other observations

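Cell types beyond glia, neurons, mesenchyme and leukocytes were followed through their markers in FIBCL against SCDM. Of 5 tested endothelial markers 3 were higher and 2 lower (Pecam1, Cdh5, Kdr, Tek, Tie1 and Flt1), with a summed level of 30.9 to 32.5 against 8.68 to 9.05 scaled TPM. Most of the FIBCL sum was Flt1 and Kdr, at means of 18.5 and 10.1 scaled TPM. Cdh5 was at 2.8 in FIBCL against 1.3 in SCDM. Pecam1 (0.110 against 0.736) and Tek (0.366 against 4.80) were below SCDM, and Tie1 was near 0 in both. Of 5 tested pericyte and smooth muscle markers 2 were higher and 3 lower, of 4 tested epithelial markers 2 were higher and 1 lower, and of 2 tested melanocyte markers 1 was lower. The 6 cell cycle genes were all lower in FIBCL, with Top2a at 41.9 to 50.0 scaled TPM in SCDM and 0.0957 to 0.302 in FIBCL. The fall was uneven. Pcna was at 102 to 114 scaled TPM in SCDM, 91.5 to 93.0 in FIBCL and 82.6 to 87.4 in spheres. The platelet chemokine gene Pf4 was at 47.5 to 51.8 scaled TPM in FIBCL, 22.3 to 31.6 in SCDM/FGF, 8.57 to 10.2 in SCDM and 1.97 to 3.37 in spheres. This order was not that of Itga2b. Of the other 3 platelet genes, Gp1bb was also higher in FIBCL, at 4.03 to 5.05 scaled TPM against 0.962 to 2.39 in SCDM, and it was at 2.60 to 4.28 in spheres, while Gp9 and Ppbp, below 0.4 scaled TPM in each of the 12 libraries, did not pass the filter.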
